A study of Mus musculus with 12 samples.

Results

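Genes that encode the extracellular matrix, or that mark fibroblasts and myofibroblasts, were followed in mouse embryonic stem cells cultured with feeders and given retinoic acid (RA) for up to 6 h. The set was a list of 39 genes. It was matched by symbol to the array's annotation, and every probe set named for a listed gene alone was used. In all, 38 of the 39 genes were found among 18193 genes with a probe set of their own, with 83 of the 45037 probe sets that are not controls. Fbn1 is not analysed here, 11 genes had 1 probe set and 27 had more, up to 6 in Timp2. RNA of KH2, a mouse stem cell line, was hybridised to 12 Affymetrix arrays in 4 groups of 3 replicates, lettered A, B and C. The untreated group (no RA) had not been exposed to RA, and the other groups had been kept for 2, 4 or 6 h in a differentiation medium of DMEM with serum, NAA and 0.3 µM RA. Whether the untreated cells were also moved to that medium is not stated, so the medium and RA cannot be told apart in any comparison against no RA. All groups shared the cell line, the feeders, a trypsin step and a replating on gelatin for 30 min before RNA was taken. On which cells were then kept the protocols differ: the extraction text keeps the attached cells, and the treatment text can be read as collecting the unattached ones. Since no label calls the replicates separate cultures, p-values here measure only the spread between these arrays, which may be technical.

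The extracellular matrix is a network of secreted proteins around cells. Fibrillar collagens give it tensile strength after the chaperone Serpinh1 has helped them fold and lysyl oxidases have crosslinked them, basement membrane collagens and fibronectin anchor cells, and small proteoglycans such as decorin bind collagen fibrils. Matricellular proteins, among them the CCN proteins Cyr61 and Ctgf, signal to cells through matrix receptors, and metalloproteases and their TIMP inhibitors turn the matrix over. Feeder cells for embryonic stem cells are usually embryonic fibroblasts, which make such a matrix in quantity, and stem cells and early endoderm make part of it themselves.

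Values are the deposited log2 values, whose array medians lay between 6.05 and 6.10 and whose median over all arrays was 6.07. Taking the brightest probe set of each gene, 33 of the 38 genes lay above that median on all 12 arrays, and 10 had a mean above 10. The levels of different probe sets cannot be compared as amounts of RNA. Lum was the dimmest gene, with a mean of 5.28, and Fn1, the gene for fibronectin, the brightest with 12.90. Values under the median were not tested against background. Not all differences that involve them are named as such, and no ratio to the untreated level is given for them.

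The label of feeder fibroblast genes was checked against 15 other genes of embryonic fibroblasts, none of them in the set. Between 4 and 8 of the 15 lay above the median on each array, with medians of 5.64 to 5.75 in untreated cells, 5.76 to 5.79 at 2 h, 5.92 to 5.99 at 4 h and 5.85 to 6.07 at 6 h. Their summed level on the linear scale was 883 to 958 in untreated cells, 896 to 969 at 2 h, 932 to 973 at 4 h and 939 to 955 at 6 h. Fap and Osr2 lay under the median on every array, and Prrx2 above it on every array. All 10 stem cell markers lay above it on every array, with medians from 12.55 to 12.86. Of the 15, 0, 3 and 4 (0%, 20.0% and 26.7%) were called higher than no RA at 2, 4 and 6 h, against 0.904%, 9.34% and 10.8% of all probe sets. Called lower were 0, 2 and 2 (0%, 13.3% and 13.3%), against 0.906%, 9.36% and 9.83%. Of these calls only those of Twist2 and Prrx2 were kept without any 1 of the 6 arrays compared, and they went opposite ways. Twist2 was at 0.53 ± 0.11 and 0.57 ± 0.11 (SE) at 4 and 6 h, and Prrx2 at -0.51 ± 0.11 and -0.64 ± 0.11. The 15 were counted on their brightest probe sets, which is not the basis of the shares over all probe sets. Which cells carried the RNA of the matrix genes was not tested. In bulk RNA, fewer cells of a type and less RNA per cell cannot be told apart.

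The 3 untreated arrays differed from each other in these genes more than the groups of RA arrays did. The median SD over the 83 probe sets was 0.25 in the untreated group, against 0.13 over all probe sets. In the RA groups it was 0.11, 0.14 and 0.12 at 2, 4 and 6 h, against 0.085 to 0.097 over all probe sets. Untreated replicate C was the lowest of the 3 untreated arrays in 29 of the 38 genes and in 59 of the 83 probe sets, and over all probe sets it was the lowest in 34.5%. Untreated replicate B was the highest in 30 genes and 61 probe sets, and over all probe sets in 27.2%. The median difference of replicate C from the mean of the other 2 untreated arrays was -0.50 over the 38 genes, that of B was 0.37 and that of A 0.013. On the linear scale the 38 genes summed to 40238, 45427 and 34229 on untreated arrays A, B and C. Like the sums of the marker lists, these are weighted towards the brightest probe sets. The sums ran from 37539 to 41998 at 2 h, from 37091 to 40270 at 4 h and from 33626 to 37681 at 6 h.

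**Figure D1:**
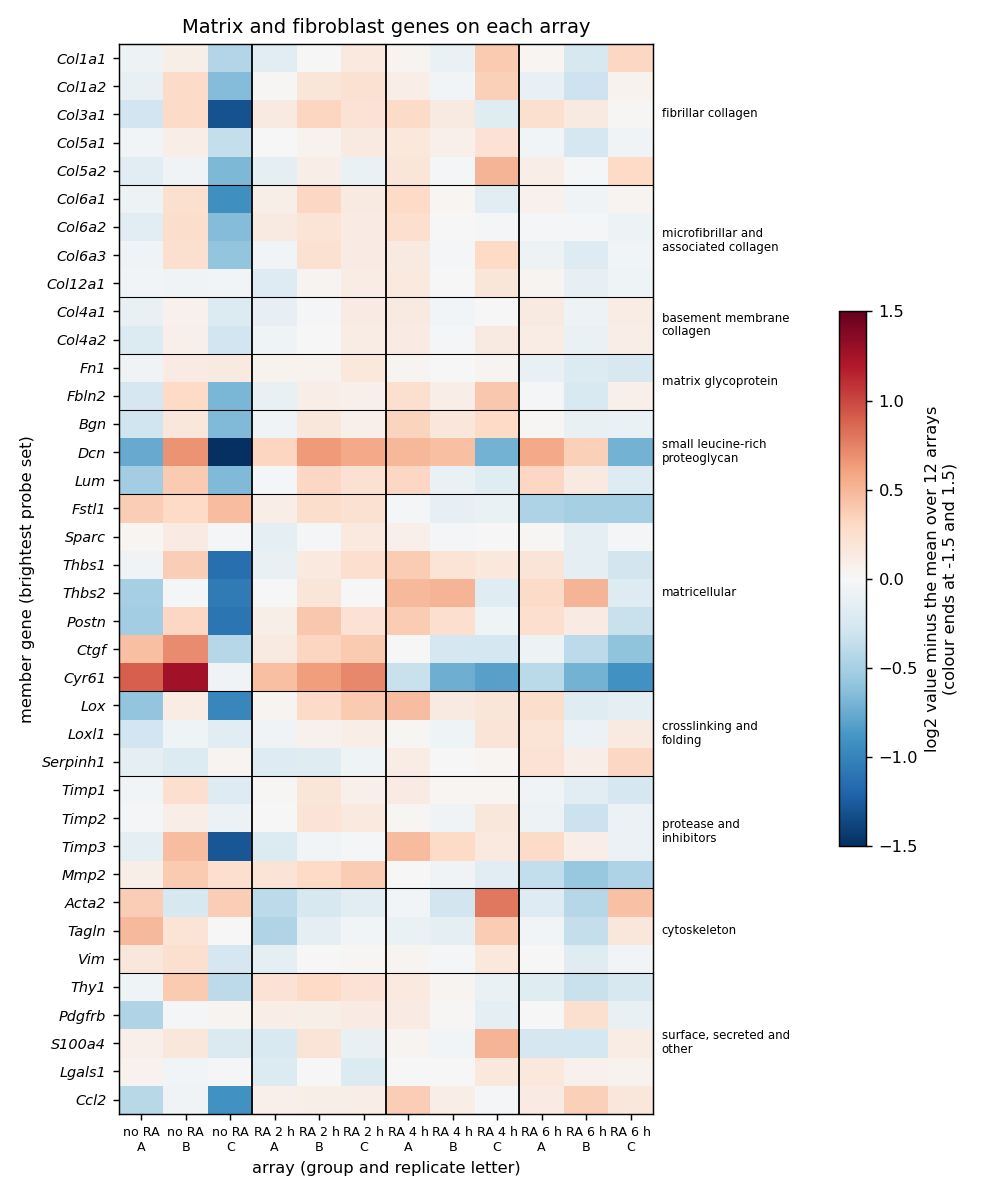
Level of each matrix and fibroblast gene (rows, brightest probe set, grouped by role) on each of the 12 arrays (columns), as the log2 value minus the mean over the 12 arrays. Untreated replicate C is the lowest of the 3 untreated arrays in 29 of the 38 rows, and Fstl1, Mmp2 and Cyr61 are low on the arrays of 6 h.

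Dcn, the gene for decorin, had the widest spread. It had 6.97, 8.39 and 5.83 on untreated arrays A, B and C, 8.05, 8.37 and 8.29 at 2 h, 8.22, 8.17 and 7.01 at 4 h, and 8.29, 8.08 and 7.02 at 6 h. The untreated arrays spanned 2.57 on the log2 scale, with A and C below every RA array and B above every RA array. The differences against no RA were 1.17 ± 0.54, 0.74 ± 0.54 and 0.73 ± 0.54 (SE) at 2, 4 and 6 h, and none passed (limma, adjusted p = 0.319, 0.413 and 0.404). Replicate C stood below A and B at 4 and 6 h as well, by more than 1 log2 unit.

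Timp3, an inhibitor of matrix metalloproteases that stays bound to the matrix, had 8.17, 8.76 and 7.02 on untreated arrays A, B and C. It had 8.09, 8.26 and 8.29 at 2 h, 8.77, 8.59 and 8.45 at 4 h, and 8.59, 8.40 and 8.22 at 6 h. Col3a1, which encodes type III collagen, had 9.18, 9.75 and 8.16 on the untreated arrays and 9.61, 9.79 and 9.69 at 2 h. It had 9.76, 9.60 and 9.29 at 4 h, and 9.71, 9.61 and 9.48 at 6 h. In both genes untreated replicate C lay below all other arrays, while untreated B lay within 0.05 of the highest array.

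Thbs1, the gene for thrombospondin 1, which activates latent TGF-beta, had 9.32, 9.75 and 8.25 on the untreated arrays and 9.27, 9.52 and 9.63 at 2 h. It had 9.75, 9.58 and 9.54 at 4 h, and 9.57, 9.23 and 9.10 at 6 h. Postn, the gene for periostin, had 7.94, 8.78 and 7.38 on the untreated arrays and 8.56, 8.87 and 8.68 at 2 h. It had 8.85, 8.72 and 8.40 at 4 h, and 8.73, 8.59 and 8.14 at 6 h. Untreated C was again the lowest of the 12 arrays in both. Neither gene passed against no RA at any time, nor did Col3a1 (0.67 ± 0.29, 0.52 ± 0.29 and 0.57 ± 0.29, SE, adjusted p = 0.286, 0.258 and 0.201).

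The range of the 3 untreated arrays was at least 1 in 11 of the 38 genes (28.9%), on their brightest probe sets. It was at least 1 in 17 of the 83 probe sets (20.5%), against 1.49% of all probe sets. It was larger than the largest of the differences against no RA in 30 of the 38 genes (78.9%). Over the 83 probe sets this held in 58 (69.9%), against 56.2% of all probe sets. Of the genes where it was not, Fstl1, Mmp2, Cyr61, Serpinh1 and Fn1 were called at 4 or 6 h, and Loxl1, Lgals1 and Col12a1 were not called against no RA. A dimmer probe set of Col12a1, with a mean of 5.90, went the other way. It had an untreated range of 0.9997 and a largest difference of 0.56, at 2 h. The spread was not the same in every role. The median untreated range was 1.13 in the 7 matricellular genes, 1.05 in the 3 small proteoglycans and 0.63 in the 5 fibrillar collagens. It was 0.32 in the 2 basement membrane collagens and 0.25 in the 3 genes of crosslinking and folding.

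**Figure D2:**
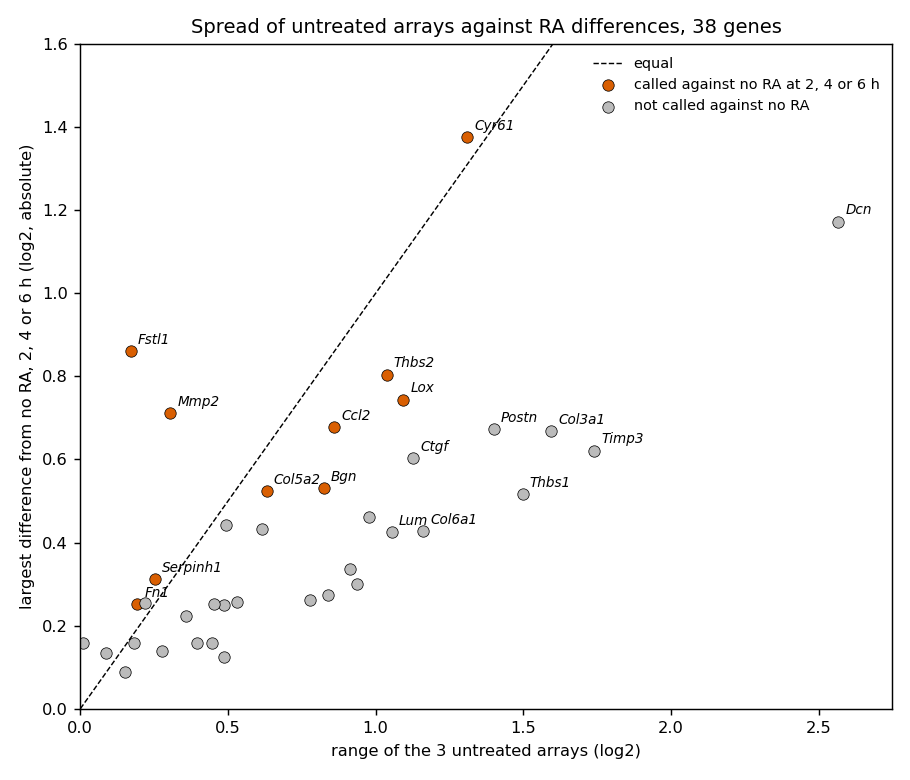
Range of the 3 untreated arrays (horizontal, log2) against the largest absolute difference from no RA at 2, 4 or 6 h (vertical, log2) for the brightest probe set of each of 38 genes, with called genes in orange and a dashed line where the 2 are equal. Of the genes, 30 lie below the line, and Dcn lies farthest right at 2.57.

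Markers of other cell types did not share 1 order of the untreated arrays. On the linear scale the 10 stem cell markers summed to 76178, 77182 and 80275 on untreated arrays A, B and C, the 5 of skeletal muscle to 812, 845 and 961, and the 5 of endothelium to 642, 668 and 683. In these sums replicate C was thus the highest array in the 3 lists. The medians of the untreated arrays did not share that order. By median C was the highest of them in endothelium and the lowest in the stem cell markers, and A was the highest in skeletal muscle. The 6 macrophage markers summed to 691, 934 and 849, with A lowest. The 8 markers of primitive or parietal endoderm summed to 936, 1064 and 670, and to 845 to 1050 on the RA arrays. The gap of C to A and B in that sum lay mostly in 1 of them, Sox7, a transcription factor of primitive endoderm, which had 8.26, 8.50 and 5.97 on untreated arrays A, B and C and 7.63 to 8.58 on the RA arrays. The Sox7 value on untreated C lay under the median of all values. Without Sox7 the other 7 summed to 631, 703 and 608 on untreated arrays A, B and C, against 620 to 670 on the RA arrays. The 15 other fibroblast genes summed to 887, 958 and 883 on untreated arrays A, B and C, with medians of 5.75, 5.64 and 5.68. In the sum B was the highest and C lay just below A, while in the medians A was the highest and B the lowest. The part of any cell type in the differences between untreated arrays was not tested.

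The first question was which matrix genes differed from no RA at each time. At 2 h none of the 83 probe sets was called higher (0.904% of all probe sets were) and none lower (0.906%) by limma at an adjusted p under 0.05. At an unadjusted p under 0.05, 18 probe sets of 14 genes passed (21.7%, against 15.6% of all). At 4 h 6 probe sets were higher (7.23%, against 9.34% of all) and 9 lower (10.8%, against 9.36%). At 6 h 3 were higher (3.61%, against 10.8%) and 9 lower (10.8%, against 9.83%). The arrays of RA and no RA did not overlap in 13, 17 and 18 of the 83 probe sets at 2, 4 and 6 h, or 15.7%, 20.5% and 21.7%, against 19.9%, 30.9% and 32.4% of all. The shares of lower calls were thus close to that of the whole array, and those of higher calls were below it.

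Before the call, more of these probe sets lay above no RA than below it. The median difference over the 83 probe sets was 0.16, 0.16 and 0.068 at 2, 4 and 6 h, where that of all probe sets was 0.0082, 0.0057 and -0.011. Differences above 0 were found in 64, 63 and 48 of the 83, or 77.1%, 75.9% and 57.8%, against 52.2%, 51.3% and 47.5% of all probe sets. This lean depended on the untreated array taken. Against untreated A alone the medians of the RA group means were 0.13, 0.15 and 0.041 at 2, 4 and 6 h. Against C alone they were 0.30, 0.28 and 0.18, and against B alone -0.067, -0.074 and -0.21. The sign thus turned with untreated replicate B, against which 28, 30 and 20 of the 83 differences were above 0.

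**Figure D3:**
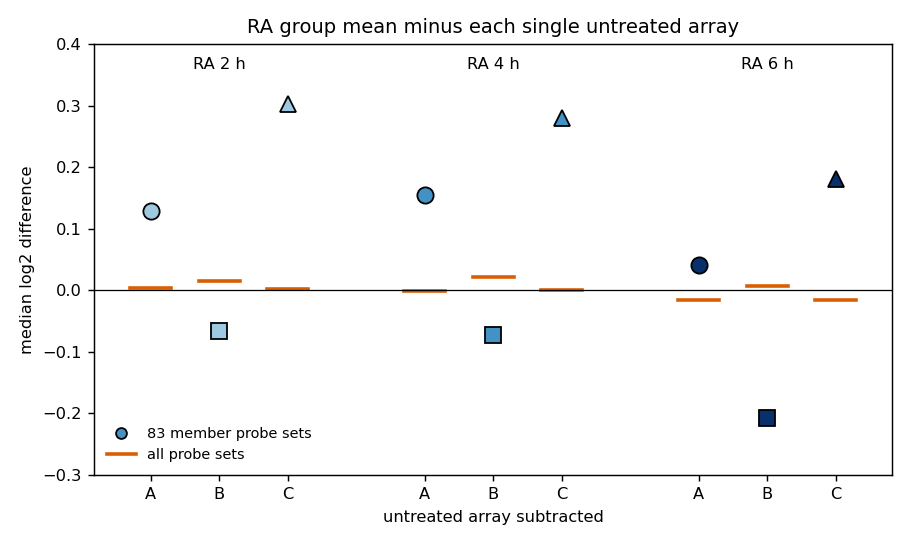
Median log2 difference of the 83 probe sets between the mean of the RA arrays at 2, 4 or 6 h and each single untreated array (horizontal), with the median of all probe sets as an orange bar. The medians against untreated A and C lie above 0 at each time and those against untreated B below it.

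The lower calls and the higher calls differed in how they held when arrays were left out. Without untreated replicate B, 25 probe sets were called higher and 7 lower at 4 h, and 12 higher and 8 lower at 6 h, while at 2 h 14 were higher. Without untreated A or C, 2 were higher at 4 h in each case, and without RA 4 h replicate A none was. Of the 9 lower calls at 4 h, 7 to 9 were kept whichever of the 6 arrays was left out, and of the 9 at 6 h, 8 or 9. When only the 6 arrays compared were fitted, 0 higher and 8 lower calls were made at either time. With array weights, 1 of the 6 higher calls at 4 h was kept, that of Ccl2, and those of Lox, Bgn, Col5a2, Timp3 and Thbs2 were lost, while all 9 lower calls were kept.

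**Figure D4:**
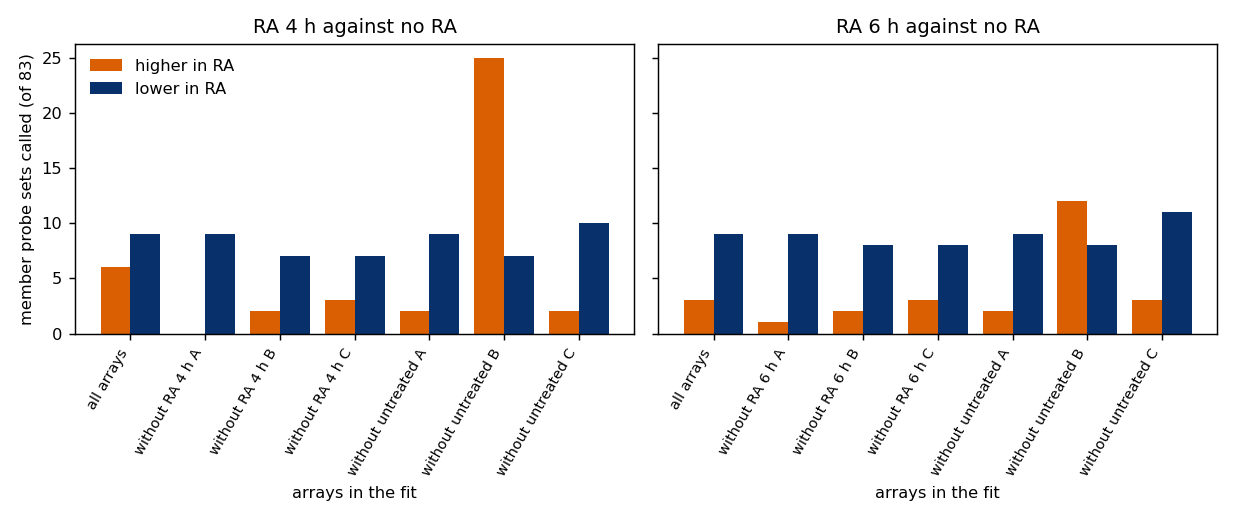
Number of the 83 probe sets called higher (orange) or lower (blue) than no RA at 4 h and at 6 h (vertical), in the fit of all arrays and in fits that leave out 1 array (horizontal). Lower calls stay between 7 and 11, and higher calls range from 0 to 25 at 4 h and from 1 to 12 at 6 h.

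Cyr61, also named Ccn1, encodes a secreted matricellular protein and is known as an immediate target of the YAP and TEAD factors and of serum. It was the member that fell most. On its brightest probe set it had 11.23, 11.59 and 10.28 on untreated arrays A, B and C, 10.78, 10.96 and 11.05 at 2 h, 9.99, 9.60 and 9.52 at 4 h, and 9.93, 9.62 and 9.42 at 6 h. All 6 arrays of 4 and 6 h lay below all 6 arrays of 2 h and no RA, also below untreated C. It fell by 1.33 ± 0.26 at 4 h and 1.38 ± 0.26 at 6 h (SE, limma, adjusted p = 0.00389 and 0.00261), to 0.399 and 0.385 times its untreated level. At 2 h the difference was -0.10 ± 0.26 (adjusted p = 0.892). All 4 probe sets of Cyr61 were called lower at 4 and 6 h, by 1.17 to 1.41, and each call was kept without any 1 of the 6 arrays. The probe sets differed at 2 h: the 2 dimmer ones were at -0.57 and -0.66 with no overlap between the groups (adjusted p = 0.0729 and 0.107).

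Ctgf, also named Ccn2, encodes the related connective tissue growth factor and shares these regulators. It had 12.14, 12.39 and 11.26 on untreated arrays A, B and C, 11.82 to 12.08 at 2 h, 11.68, 11.44 and 11.42 at 4 h, and 11.61, 11.29 and 11.08 at 6 h. Untreated C lay among the arrays of 4 and 6 h. The differences against no RA were -0.41 ± 0.23 at 4 h and -0.60 ± 0.23 at 6 h and did not pass (SE, adjusted p = 0.267 and 0.0892). Against 2 h, where the groups did not overlap, they were -0.45 and -0.64 and did not pass either (adjusted p = 0.228 and 0.0656). The variance in these tests also held the spread of the untreated arrays.

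Fstl1 encodes follistatin-like 1, a secreted glycoprotein that binds BMP ligands. It had 10.35, 10.28 and 10.45 on untreated arrays A, B and C, 10.08, 10.24 and 10.21 at 2 h, 9.95, 9.86 and 9.88 at 4 h, and 9.52, 9.48 and 9.49 at 6 h. No group overlapped the next, and the untreated arrays spanned 0.17. Against no RA, Fstl1 was at -0.18 ± 0.070 at 2 h (SE, limma, adjusted p = 0.244) and fell by 0.46 ± 0.070 at 4 h and 0.86 ± 0.070 at 6 h (adjusted p = 0.000692 and 7.51e-06). The second probe set fell by 0.45 and 0.76, and all 4 calls were kept without any 1 of the 6 arrays.

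**Figure D5:**
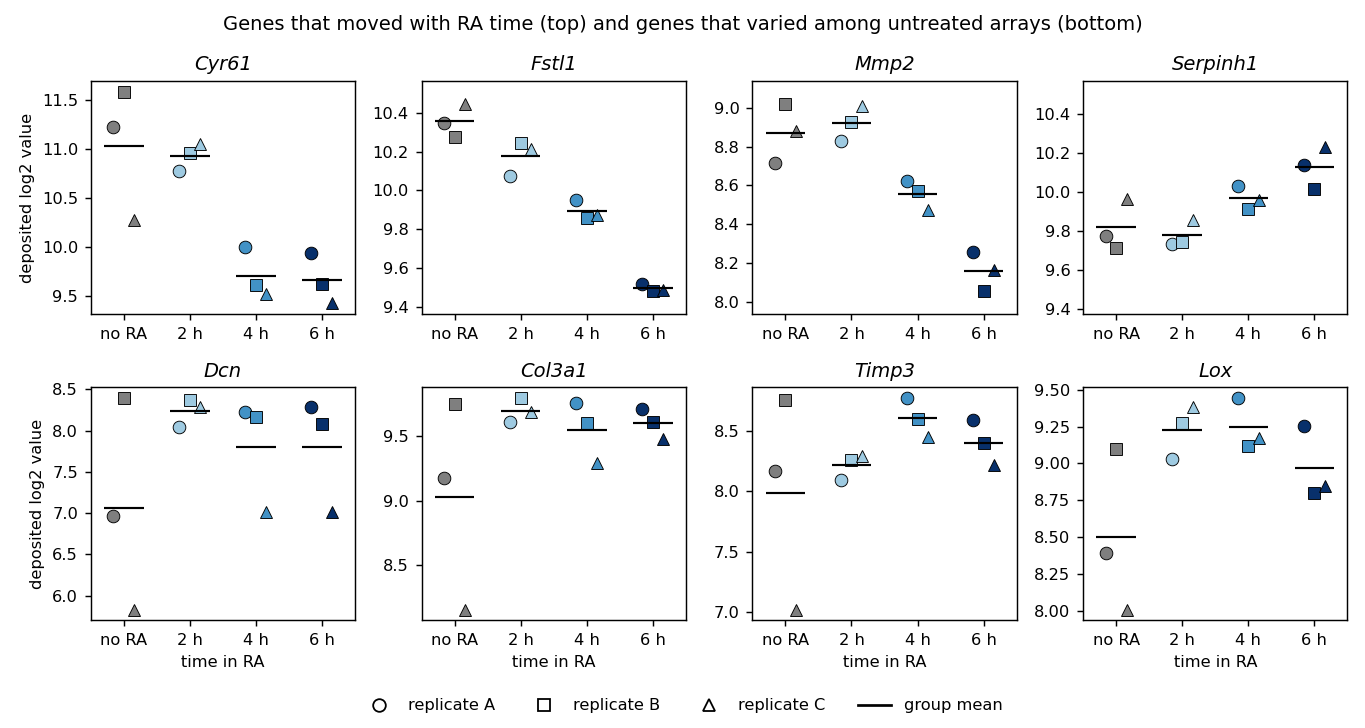
Deposited log2 values (vertical) of 8 genes on the 12 arrays by time in RA (horizontal), with a circle, square or triangle for replicate A, B or C and a bar for the group mean. In the top row Cyr61, Fstl1 and Mmp2 are lower at 4 and 6 h and Serpinh1 is higher at 6 h, and in the bottom row untreated replicate C is the lowest array of Dcn, Col3a1, Timp3 and Lox.

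Promoter sequence is shown for a gene that fell with its untreated arrays spread (Cyr61), a gene that fell with them close together (Fstl1), the gene that was called higher on both of its probe sets at 6 h (Serpinh1), and a collagen gene that varied mainly among the untreated arrays (Col3a1). The sequences are the 250 bases before the gene's start in RefSeq, build GRCm38.p6, read 5′ to 3′ on the gene's strand. Capitals mark the letters CATTCC, which read GGAATG on the other strand and are the core of a TEAD site, and the TATA box letters TATAAA. The regions are chr3:145649986-145650235 on the minus strand for Cyr61, chr16:37776805-37777054 on the plus strand for Fstl1, chr7:99353240-99353489 on the minus strand for Serpinh1 and chr1:45311288-45311537 on the plus strand for Col3a1.
Cyr61: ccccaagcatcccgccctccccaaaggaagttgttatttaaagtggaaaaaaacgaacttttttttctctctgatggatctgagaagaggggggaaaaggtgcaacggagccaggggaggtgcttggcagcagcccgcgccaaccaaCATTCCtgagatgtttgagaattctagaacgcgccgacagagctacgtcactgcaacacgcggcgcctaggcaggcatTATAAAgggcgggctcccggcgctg
Fstl1: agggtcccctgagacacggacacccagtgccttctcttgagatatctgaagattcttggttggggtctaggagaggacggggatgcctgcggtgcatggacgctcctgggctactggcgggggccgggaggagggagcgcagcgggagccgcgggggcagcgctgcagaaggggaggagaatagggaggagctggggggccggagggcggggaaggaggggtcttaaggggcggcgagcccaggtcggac
Serpinh1: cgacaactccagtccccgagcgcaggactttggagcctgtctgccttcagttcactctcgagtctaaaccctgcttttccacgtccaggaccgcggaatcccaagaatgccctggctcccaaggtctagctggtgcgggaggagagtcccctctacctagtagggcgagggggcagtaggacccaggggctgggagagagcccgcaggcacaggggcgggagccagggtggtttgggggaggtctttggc
Col3a1: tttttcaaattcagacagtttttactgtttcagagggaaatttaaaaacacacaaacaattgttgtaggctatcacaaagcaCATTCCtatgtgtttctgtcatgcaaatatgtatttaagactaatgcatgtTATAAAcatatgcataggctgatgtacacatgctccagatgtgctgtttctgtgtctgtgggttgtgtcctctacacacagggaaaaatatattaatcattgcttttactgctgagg
The Cyr61 promoter held the TEAD letters 103 to 98 bases and TATAAA 25 to 20 bases before the start, and that of Col3a1 held them at 168 to 163 and 117 to 112. Neither set of letters was found in the windows of Fstl1 and Serpinh1. RefSeq promoters matched 22 of the 38 genes. On either strand GGAATG was found in 5 of the 22 and in 12.6% of all 32851 promoters, TATAAA in 6 and in 12.4%, the core of RA receptor sites AGGTCA in 2 and in 14.0%, and the CArG box of serum response factor in 0 and in 1.47%. The letters of different motifs did not overlap in any of the 22. A match is a description of these letters and not a binding site.

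Mmp2, the gene for gelatinase A, a protease of denatured and type IV collagen, was lower at 4 h and lower still at 6 h. It had 8.71, 9.02 and 8.88 on untreated arrays A, B and C, 8.83, 8.93 and 9.01 at 2 h, 8.62, 8.57 and 8.47 at 4 h, and 8.26, 8.06 and 8.16 at 6 h. The arrays of 6 h lay below those of 4 h, and those of 4 h below all of 2 h and no RA. It fell by 0.32 ± 0.090 at 4 h and 0.71 ± 0.090 at 6 h (SE, limma, adjusted p = 0.0282 and 0.000165), the second being 0.61 times the untreated level. The second probe set fell by 0.41 and 0.77, and its 4 h call was lost without untreated B or without RA 4 h replicate B or C (-0.49 to -0.35). The calls at 6 h were kept without any 1 of the 6 arrays, while at 4 h that of the brightest ranged from -0.39 to -0.24 and the call was lost without untreated B or C or without RA 4 h replicate B or C.

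None of the 3 TIMP genes was called lower than no RA. The brightest probe set of Timp3 differed by 0.62 ± 0.31 at 4 h and did not pass (SE, adjusted p = 0.208). A dimmer one with 6.48, 6.51 and 5.77 on untreated arrays A, B and C and 6.93, 6.73 and 6.95 at 4 h rose by 0.62 ± 0.17 (adjusted p = 0.026), without overlap. That call was lost without RA 4 h replicate A or C, with a range of 0.38 to 0.75, and untreated C lay under the median of all values. Timp1 was at 10.64, 10.93 and 10.48 in untreated cells and Timp2 at 8.97, 9.08 and 8.90, and at 6 h they differed by -0.16 each (adjusted p = 0.341 and 0.281).

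Of the 11 collagen genes 1 was called against no RA. Col5a2, a chain of type V collagen, which starts the assembly of collagen fibrils, had 8.30, 8.42 and 7.79 on untreated arrays A, B and C, 8.34, 8.57 and 8.37 at 2 h, 8.65, 8.45 and 8.98 at 4 h, and 8.56, 8.44 and 8.76 at 6 h. The arrays of 4 h did not overlap the untreated ones, though RA 4 h B was within 0.03 of untreated B. It rose by 0.52 ± 0.17 at 4 h (SE, limma, adjusted p = 0.0453) and was at 0.42 ± 0.17 at 6 h (adjusted p = 0.1). The second probe set of Col5a2 was dim, with a mean of 4.63, where the median over all arrays was 6.07. Its groups overlapped at 4 h, and its difference of 0.03 ± 0.13 did not pass (SE, limma, adjusted p = 0.924). The 4 h call was lost without untreated A or C, without RA 4 h replicate A or C and under a replicate block, with differences of 0.34 to 0.65 over the 6 fits that left out an array.

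Type I collagen, the main fibrillar collagen of fibroblasts, is made of chains from Col1a1 and Col1a2. Col1a1 had 8.35, 8.51 and 7.98 on untreated arrays A, B and C, 8.27, 8.43 and 8.58 at 2 h, 8.47, 8.33 and 8.82 at 4 h, and 8.46, 8.19 and 8.73 at 6 h. On this brightest probe set its groups overlapped throughout, and the same held for Col1a2, which had 10.14, 10.54 and 9.60 on the untreated arrays. The type VI chains Col6a1, Col6a2 and Col6a3 had untreated ranges of 1.16, 0.91 and 0.84, with C lowest and B highest in each. The basement membrane chains Col4a1 and Col4a2 had ranges of 0.28 and 0.36 and differences against no RA of 0.07 to 0.22, none of which passed.

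Fibronectin was the brightest member, and its 2 probe sets did not change in the same way. The brighter had 12.84, 13.02 and 13.03 on untreated arrays A, B and C, 12.95, 12.95 and 13.06 at 2 h, 12.94, 12.89 and 12.94 at 4 h, and 12.79, 12.69 and 12.65 at 6 h. All arrays of 6 h lay below all others, by 0.25 ± 0.072 against no RA (SE, limma, adjusted p = 0.0256). That call was lost without untreated B or C or without RA 6 h replicate B or C, with differences of -0.31 to -0.22. The dimmer probe set had 8.13, 8.17 and 8.14 on the untreated arrays, 7.82, 7.83 and 7.81 at 2 h, 7.78, 7.82 and 7.64 at 4 h, and 8.24, 8.30 and 7.94 at 6 h. It fell by 0.40 ± 0.089 at 4 h (adjusted p = 0.00779), kept without any 1 of the 6 arrays, and was at 0.02 ± 0.089 at 6 h (adjusted p = 0.931). Fbln2, the gene for fibulin 2, had an untreated range of 0.98 and was not called.

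Bgn, the gene for biglycan, a small proteoglycan related to decorin, had 9.39, 9.85 and 9.02 on untreated arrays A, B and C, 9.63, 9.85 and 9.76 at 2 h, 10.02, 9.85 and 9.98 at 4 h, and 9.70, 9.57 and 9.58 at 6 h. Untreated B reached the lowest array of 4 h. Bgn rose by 0.53 ± 0.16 at 4 h (SE, limma, adjusted p = 0.0323), which held only without untreated B among the 6 arrays left out in turn (0.33 to 0.75). Its other 2 probe sets were at 0.45 and 0.31 and did not pass. Lum, the gene for lumican, had 4.76, 5.68 and 4.62 on the untreated arrays and no array had it above the median of all values.

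Thbs2, the gene for thrombospondin 2, which binds and helps to clear Mmp2, had 6.62, 7.09 and 6.05 on untreated arrays A, B and C, 7.12, 7.30 and 7.11 at 2 h, 7.60, 7.63 and 6.94 at 4 h, and 7.40, 7.63 and 6.93 at 6 h. RA 4 h replicate C lay below untreated B, and untreated C lay under the median of all values. Thbs2 rose by 0.80 ± 0.25 at 4 h (SE, limma, adjusted p = 0.044) and was at 0.73 ± 0.25 at 6 h (adjusted p = 0.0603). The 4 h call was lost without untreated A or C or without RA 4 h replicate A or B, with differences of 0.54 to 1.06. It was also lost with median centring, with trended and robust variance, with array weights and with only the groups compared. Its other 2 probe sets were at 0.82 and 0.52 at 4 h and did not pass. In the first of them untreated C was under the median of all values, and in the second every array was. Sparc, the gene for osteonectin, a collagen-binding protein, was bright and steady, with 11.21, 11.30 and 11.15 on the untreated arrays, and was not called.

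Lox, the gene for lysyl oxidase, which starts the crosslinks of collagen and elastin, had 8.39, 9.10 and 8.01 on untreated arrays A, B and C, 9.03, 9.28 and 9.38 at 2 h, 9.44, 9.12 and 9.17 at 4 h, and 9.25, 8.80 and 8.85 at 6 h. Untreated A and C lay below all RA arrays and untreated B among them, just under the lowest array of 4 h. Lox rose by 0.74 ± 0.22 at 4 h (SE, limma, adjusted p = 0.0358) and was at 0.73 ± 0.22 at 2 h (adjusted p = 0.134). The 4 h call held only without untreated B among the 6 arrays left out in turn (0.50 to 1.04), and its other 2 probe sets were at 0.43 and, under the median of all values, -0.27, and did not pass. Loxl1, a related oxidase, had 7.47, 7.69 and 7.59 on the untreated arrays and differences of 0.21, 0.22 and 0.25, none of which passed.

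Serpinh1 encodes the collagen chaperone HSP47 of the endoplasmic reticulum. It had 9.78, 9.71 and 9.97 on untreated arrays A, B and C, 9.73, 9.74 and 9.86 at 2 h, 10.03, 9.91 and 9.96 at 4 h, and 10.14, 10.02 and 10.23 at 6 h. The arrays of 6 h lay above all untreated ones, of which C was the highest here. Serpinh1 rose by 0.31 ± 0.084 at 6 h (SE, limma, adjusted p = 0.0188), and its second probe set by 0.23 ± 0.067 (adjusted p = 0.0257). The call of the first was lost without untreated A or B or without RA 6 h replicate A or C (0.26 to 0.39), and that of the second without untreated B or any array of 6 h (0.19 to 0.27).

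Ccl2, a chemokine that attracts monocytes and is secreted by fibroblasts, had 5.90, 6.27 and 5.41 on untreated arrays A, B and C, 6.40, 6.41 and 6.42 at 2 h, 6.69, 6.42 and 6.31 at 4 h, and 6.45, 6.68 and 6.49 at 6 h. All RA arrays lay above all untreated ones, 2 of which were under the median of all values. Ccl2 rose by 0.61 ± 0.17 at 4 h and 0.68 ± 0.17 at 6 h (SE, limma, adjusted p = 0.0255 and 0.0135) and was at 0.55 ± 0.17 at 2 h (adjusted p = 0.14). The 4 h call was lost without untreated C or without RA 4 h replicate A or B (0.39 to 0.81), and the 6 h call without RA 6 h replicate B (0.45 to 0.88).

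The contractile and surface genes of the set were not called against no RA. Acta2, the smooth muscle actin of myofibroblasts, had 10.12, 9.50 and 10.12 on untreated arrays A, B and C, 9.35, 9.51 and 9.58 at 2 h, 9.70, 9.47 and 10.53 at 4 h, and 9.55, 9.32 and 10.19 at 6 h. Replicate C was the highest array at 4 and 6 h and, unlike in most of the set, untreated B was the lowest untreated one. Tagln, which binds actin in such cells, ran from 9.76 at 2 h to 10.71 on untreated A. The intermediate filament gene Vim, the surface antigen gene Thy1, the growth factor receptor gene Pdgfrb, the calcium-binding S100a4 and the galectin Lgals1 had untreated ranges of 0.49, 0.78, 0.49, 0.39 and 0.088.

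The differences between RA times use no untreated array. Their SEs and p-values do, since the variance of each probe set was pooled over all groups, the untreated one included. The arrays left out in turn here were only those of the times compared. From 2 to 4 h 1 probe set was higher (1.20%, against 9.24% of all probe sets) and 8 were lower (9.64%, against 7.09%). The lower ones were the 4 of Cyr61 and both of Fstl1 and of Mmp2, and the higher one was a probe set of Serpinh1 (0.31 ± 0.067, SE, limma, adjusted p = 0.0077). On the brightest probe sets Cyr61 fell by 1.23 ± 0.26, Mmp2 by 0.37 ± 0.090 and Fstl1 by 0.28 ± 0.070 (adjusted p = 0.00737, 0.0154 and 0.0154). That of Cyr61 was kept without any 1 of the 6 arrays. That of Mmp2 was lost without RA 2 h or RA 4 h replicate C (-0.41 to -0.32), and that of Fstl1 without replicate B or C of 2 h or B of 4 h (-0.34 to -0.25). Without RA 2 h replicate C the second probe set of Fstl1 and the dimmest of Cyr61 were lost too, and that of Cyr61 also without RA 4 h replicate C.

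From 4 to 6 h none was called higher (0.104% of all) or lower (0.0688%), nor with replicate letters as a block, and 12 probe sets of 8 genes passed at an unadjusted p under 0.05 (14.5%, against 10.8%). The arrays of 6 and 4 h did not overlap in 22 probe sets (26.5%, against 19.8%). The difference of Fstl1 was -0.40 ± 0.070 without overlap and did not pass (SE, limma, adjusted p = 0.0515), and Mmp2 was at -0.40 ± 0.090 (adjusted p = 0.112).

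From 2 to 6 h 4 probe sets were higher (4.82%, against 13.0%) and 11 lower (13.3%, against 9.85%). Cyr61 fell by 1.27 ± 0.26, Mmp2 by 0.76 ± 0.090 and Fstl1 by 0.68 ± 0.070 (SE, limma, adjusted p = 0.00414, 0.000116 and 4.71e-05), and these were kept without any 1 of the 6 arrays. Serpinh1 rose by 0.35 ± 0.084 on its brightest probe set (adjusted p = 0.00918), also kept without any of them. Thy1, a surface antigen of fibroblasts, had 8.66, 8.52 and 8.61 at 6 h, against 9.07, 9.14 and 9.06 at 2 h, and fell by 0.49 ± 0.15 (adjusted p = 0.0311). That call was lost without any 1 of the 6 arrays (-0.53 to -0.45).

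Lgals1, the gene for galectin 1, had 12.14, 12.03 and 12.03 at 6 h, against 11.78, 11.97 and 11.77 at 2 h, and rose by 0.23 ± 0.077 (SE, limma, adjusted p = 0.0487). The call held without RA 2 h replicate B and was lost without any other of the 6 arrays (0.20 to 0.30). Single probe sets of Col1a1 (by 0.36 ± 0.099) and Timp2 (by 0.22 ± 0.070) fell from 2 to 6 h, and the brightest of either gene did not pass. The first call was lost without replicate B or C of 2 h or B of 6 h (-0.43 to -0.31), and the second was kept only without RA 2 h replicate A (-0.26 to -0.19). The 2 Fn1 probe sets were called in opposite directions, the brighter by -0.28 ± 0.072 and the dimmer by 0.34 ± 0.089 (adjusted p = 0.0153 and 0.0158). The brighter was lost without RA 2 h replicate C or RA 6 h replicate B or C (-0.31 to -0.24), and the dimmer without RA 6 h replicate A or B (0.27 to 0.45).

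The other genes of the matrix and its receptors come from lists chosen with earlier results of these data known. Their counts, on the brightest probe set of each gene, stand beside 0.904%, 9.34% and 10.8% of all probe sets called higher at 2, 4 and 6 h, and 0.906%, 9.36% and 9.83% called lower. These bases differ, since all probe sets include dim ones and ones without a gene. Of 39 further matrix genes, 0, 3 and 3 (0%, 7.69% and 7.69%) were called higher and 0, 2 and 4 (0%, 5.13% and 10.3%) lower at 2, 4 and 6 h. Tgfbi, a TGF-beta induced adhesion protein, fell by 0.87 ± 0.15 and 1.08 ± 0.15 at 4 and 6 h (SE, limma, adjusted p = 0.00147 and 0.000285). The laminin chain Lamc1 fell by 0.35 ± 0.063 and 0.46 ± 0.063, and Nid2, which links laminin to type IV collagen, by 0.62 ± 0.10 at 6 h. Vcan, the large proteoglycan versican, rose by 0.48 ± 0.093 and 0.59 ± 0.093. These calls were kept without any 1 of the 6 arrays compared. Tnc, the gene for tenascin C, rose by 0.78 ± 0.23 at 4 h (adjusted p = 0.0292). Untreated C differed by -1.09 from the mean of A and B, and its call was lost without any of the 3 arrays of 4 h (0.42 to 1.02).

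Among 18 measured genes of collagen synthesis and crosslinking, 0, 0 and 0 were higher and 1, 5 and 5 (5.56%, 27.8% and 27.8%) lower at 2, 4 and 6 h. Tgm2, a transglutaminase, had 8.53, 8.15 and 8.36 at 6 h, against 9.47, 9.60 and 9.93 in untreated cells. It fell by 0.73 ± 0.12 at 4 h and 1.32 ± 0.12 at 6 h (SE, limma, adjusted p = 0.00151 and 2.03e-05). The lysyl hydroxylase Plod1 fell by 0.54 ± 0.081 and 0.75 ± 0.081, and the prolyl hydroxylase subunit P4ha1 by 0.47 ± 0.096 and 0.38 ± 0.096. Pcolce, which enhances procollagen cleavage, fell by 0.34 ± 0.075 at 6 h. All of these were kept without any 1 of the 6 arrays. Pcolce2, of the same enhancer family, fell by 0.33 ± 0.065 at 2 h and 0.36 ± 0.065 at 4 h (adjusted p = 0.024 and 0.00198). Its 4 h call was kept in the same way, and its 2 h call was lost without untreated A or any array of 2 h (-0.36 to -0.29). The median difference over all 18 genes was -0.039, 0.026 and 0.036 at 2, 4 and 6 h.

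Of 13 measured proteases and inhibitors, 0, 1 and 1 were higher and 0, 1 and 1 lower. The gelatinase gene Mmp9 rose by 0.72 ± 0.10 and 0.80 ± 0.10 at 4 and 6 h (SE, limma, adjusted p = 0.000499 and 0.000176), with its untreated values of 5.95, 5.79 and 5.57 under the median of all values. Mmp11 fell by 0.69 ± 0.11 at 4 h and by 0.34 ± 0.11 at 6 h. The 6 h call was lost without untreated C or any array of 6 h (-0.42 to -0.21).

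Of 18 measured matrix receptors, 1, 2 and 2 were higher and 1, 4 and 4 lower. The laminin-binding integrin Itga3 rose by 0.38 ± 0.077, 0.76 ± 0.077 and 0.60 ± 0.077 at 2, 4 and 6 h (SE, limma, adjusted p = 0.0263, 5.03e-05 and 0.000186). Its 2 h call was lost without untreated B or any array of 2 h (0.30 to 0.43). The syndecan Sdc2 fell by 0.53 ± 0.087 and 0.68 ± 0.087 at 4 and 6 h, and the integrin Itgb5 by 0.45 ± 0.095 and 0.47 ± 0.095. The syndecan Sdc1 fell by 0.43 ± 0.092 at 2 h (adjusted p = 0.0358), lost without any array of 2 h (-0.49 to -0.30), with quantile normalization and under the replicate block. The collagen-binding integrin Itga1 rose by 0.47 ± 0.11 at 4 h (adjusted p = 0.00822), a difference between values of 4.61 to 5.42, all under the median of all values. Pdgfra, a receptor of platelet-derived growth factor, rose by 0.39 ± 0.12 at 6 h (adjusted p = 0.0375), and its call was lost without any 1 of the 6 arrays (0.36 to 0.43). Of its untreated values, 6.02, 6.13 and 6.01, those of A and C were under the median.

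Of 20 measured targets of SRF, YAP and TGF-beta, 1, 1 and 2 were higher and 1, 2 and 3 lower at 2, 4 and 6 h. Amotl2, a YAP target that binds YAP, had 9.46, 9.47 and 9.29 at 4 h and 9.52, 9.36 and 9.46 at 6 h, against 10.84, 11.21 and 9.83 on untreated arrays A, B and C. It fell by 1.22 ± 0.25 and 1.18 ± 0.25 (SE, limma, adjusted p = 0.00475 and 0.00507), and untreated C differed by -1.20 from the mean of A and B. Skil, an inhibitor of SMAD signalling, rose by 0.50 ± 0.081 at 6 h, and Tpm2, a tropomyosin, fell by 0.38 ± 0.066 at 6 h. Tgfb1i1, a focal adhesion adaptor also named Hic-5, rose by 0.48 ± 0.11 at 4 h, and Ccnd1, the gene for cyclin D1, fell by 0.37 ± 0.082 at 6 h (adjusted p = 0.00745 and 0.00706). These calls were kept without any 1 of the 6 arrays. Skil also rose at 2 h, by 0.42 ± 0.081 (adjusted p = 0.0212), lost without untreated A or B or any array of 2 h (0.38 to 0.46). Tpm2 also fell at 4 h, by 0.23 ± 0.066 (adjusted p = 0.0264), lost without untreated C or RA 4 h replicate B (-0.26 to -0.19). Smad7, another SMAD inhibitor, fell by 0.36 ± 0.078 at 2 h (adjusted p = 0.0373), which was lost without untreated A or C or without RA 2 h replicate A or B (-0.43 to -0.31).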

How the data were processed

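Biotin-labelled RNA (200 ng in the labelling, per the labels' protocols) of 12 KH2 samples was measured on 12 Affymetrix arrays. The deposited values are on the log2 scale per probe set, as their range and array medians show. The submitters' processing notes name limma 3.4.3, and the normalization method is not given in the sources used here. Groups came from the RA exposure given in the sample labels, and replicate letters from the sample titles. The titles call the untreated arrays WT and the others by their hours in RA. No column of other samples was used (0 found).

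After 64 control probe sets were left out, the deposited log2 values of 45037 probe sets were fitted in 1 model of 4 groups with lmFit and eBayes of limma 3.58.1 in R 4.3.3 (8 residual and 4.23 prior degrees of freedom). P-values were adjusted by Benjamini-Hochberg over all probe sets, and called means an adjusted p under 0.05. With 3 arrays a group, their number limits the precision. The platform annotation gave 1 gene for 34945 probe sets, several for 932 and none for 9160. Ctgf and Cyr61 were matched as Ccn2 and Ccn1 through RefSeq synonyms, and 1 probe set shared by Thbs1 and Pald1 was left out.

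The genes and all lists were chosen with earlier results of these data known. Values on every array are given for genes called on at least 1 probe set and for those with the 6 largest untreated ranges, on the probe set with the highest mean; the others are given by range and counts. From each other list up to 4 called genes per comparison are named, those with the largest differences. Ctgf, Col1a1 and Acta2 are described in addition, chosen after their values were seen.

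Over all probe sets 4 of 18 same-letter pairs had a correlation of deviations over 0.1 (-0.164 to 0.257), so the letters were not taken as pairs. Over the 83 probe sets 8 had (-0.40 to 0.82), and the 3 pairs of 4 and 6 h were at 0.59, 0.62 and 0.82, against -0.65 to 0.37 for other letters. Alternatives were quantile normalization, median centring, 1 probe set per gene, a filter on dim probe sets, trended and robust variance, array weights, only the groups compared, a replicate block and leaving out each array. The fit was checked on simulated data with the same spread in every group, so that check does not cover the wider spread of the untreated arrays. Promoters were read from RefSeq (GRCm38.p6). Python 3.11.15, numpy 2.4.6, pandas 2.3.3 and matplotlib 3.10.9 were used for the rest.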

Additional observations from a re-analysis of the deposited data

Results flagged for a closer look

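The RA groups share their untreated arrays, so the difference between 2 times equals the difference of their effects, and it was tested directly with limma. Between 4 and 2 h it passed on the brightest probe set of Fstl1 (-0.2848), Mmp2 (-0.3660) and Cyr61 (-1.2259). Between 6 and 2 h it passed for Fn1 (-0.2763), Fstl1 (-0.6832), Mmp2 (-0.7622), Cyr61 (-1.2741), Thy1 (-0.4931), Serpinh1 (0.3526) and Lgals1 (0.2317). The effect of time in RA cannot be told apart from that of time in the differentiation medium. The Thy1 call was lost without any 1 of the 6 arrays compared, and that of Lgals1 without 5 of them.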

How the results depend on the processing

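The count of called probe sets was 0 at 2 h, 15 at 4 h and 12 at 6 h against no RA. At 2 h it was 1 with the filter on dim probe sets, with trended variance and with array weights, and 2 with letters A and B only, a setting chosen after seeing the data. At 4 h it was 8 with only the groups compared. Without 1 array it ranged from 0 to 14 at 2 h, 9 to 32 at 4 h and 10 to 20 at 6 h, with the highest value without untreated replicate B each time. Between 4 and 2 h it was 9, 3 with letters A and B only, and 5 to 9 without 1 array. Between 6 and 4 h it was 0, against 2 with the dim filter, 1 with trended variance, 3 with array weights and 0 to 1 without 1 array. Between 6 and 2 h it was 15, 23 with array weights and 10 to 15 without 1 array. With the replicate block the counts were 0, 14, 14, 9, 0 and 15 in the order of comparisons above. Untreated replicate C had an array weight of 0.251, and the other arrays 0.805 to 1.86. None of the 51 calls among the 83 probe sets, over all comparisons, changed sign. Calls of the other lists are not in this count. Of the 51, 50 were kept with median centring and with quantile normalization, 49 with the block and 48 with trended variance. Another 3 settings kept fewer: 46 with array weights, 39 with only the groups compared and 31 with letters A and B only. With array weights the 5 lost calls were the 4 h rises of Lox, Bgn, Col5a2, Timp3 and Thbs2. The causes of these changes were not tested. Signal over background was not tested either, and 18 of the 83 probe sets had a mean under the median of all values.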

Other observations

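Replicate C differed from A and B in the same genes at 4 and 6 h. Dcn and Thbs2 were lowest on C at both times, with 7.01 and 6.94 at 4 h and 7.02 and 6.93 at 6 h. Acta2, Tagln, S100a4 and Col1a1 were highest on C at both times, with 10.53, 10.60, 9.85 and 8.82 at 4 h and 10.19, 10.38, 9.45 and 8.73 at 6 h. Over the 83 probe sets the deviations from the group mean at 4 and 6 h correlated at 0.82 between the C arrays, 0.59 between the A arrays and 0.62 between the B arrays, and over all probe sets at 0.26, 0.19 and 0.034, as a description across probe sets that share a library. At 2 h, replicate A was the lowest array in 33 of the 38 genes and 62 of the 83 probe sets, and over all probe sets in 31.1%. Its median difference from the mean of B and C was -0.17 over the 38 genes.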
